A study of Mus musculus with 12 samples.

Results

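The transcripts described here encode the cytosolic sulfotransferases (Sult genes) and the PAPS synthases (Papss1 and Papss2) of the mouse liver. The members are 10 genes chosen by name, and each was read from the row of the array table whose platform annotation gives that gene symbol alone. All 10 were found, each with exactly 1 row, among 19938 genes with a single symbol. Liver was compared between 6 mice given an adenovirus for ChREBP and 6 given an adenovirus for GFP, a control protein. ChREBP, encoded by Mlxipl, is a transcription factor that responds to glucose. All animals were fed male C57BL/6J mice, 8 weeks of age in the labels, studied 3 weeks after injection into the tail vein, with 1 array per liver and no pooling stated. Neither the driving promoter nor the source species of the transgene is given in the sources used here. Its transcripts cannot be told apart from mouse Mlxipl on the array.

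Sulfation joins a sulfonate group to a small molecule, which makes most steroids, phenols and drugs more soluble in water and usually less active. The donor of the group is PAPS (phosphoadenosine phosphosulfate). PAPS synthases make it in the cytosol from ATP and inorganic sulfate, first as an ATP sulfurylase and then as an APS kinase in the same protein. Cytosolic sulfotransferases then pass the group to hormones and xenobiotics, while other sulfotransferases, in the Golgi, act on sugars and proteins. In mice several of these genes differ between the sexes, and Sult3a1 is known from the liver of females.

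Values are log2 units made by RMA (robust multi-array average), so a difference of 1 is a doubling of signal. Signals of different genes come from different probes. They were ranked against each other only to mark low signals and to leave out the dimmest genes. Mlxipl, the overexpressed gene, was 10.89 ± 0.08 in ChREBP livers and 9.32 ± 0.23 in GFP livers (SD, n = 6 each), a difference of 1.57 (SE 0.09, limma adjusted p = 2.86e-08). Array medians lay between 5.96 and 6.05. Arrays ChREBP 4 and ChREBP 5 stood apart through transcripts of pancreatic acinar cells, whose 7 measured markers averaged 12.17 and 11.97 there, 5.44 to 7.29 on the other ChREBP arrays and 5.46 to 5.64 on GFP arrays. The mean of 5 adipocyte markers was 6.16 to 7.07 on ChREBP arrays and 5.70 to 6.77 on GFP arrays. It reached 7.07 on ChREBP 6, 6.80 on ChREBP 4, 6.77 on GFP 4, 6.70 on GFP 6 and 6.61 on ChREBP 5. Of 5 hepatocyte markers 0 rose and 3 fell, and their mean was 12.83 to 12.99 on ChREBP arrays and 13.04 to 13.18 on GFP arrays. T and NK cell markers rose in 4 of 5 genes (6.38 to 7.12 on ChREBP arrays and 5.42 to 6.05 on GFP arrays). Cholangiocyte markers rose in 2 and fell in 0 of 5 genes, Kupffer cell markers rose in 2 and fell in 4 of 6, endothelial markers rose in 1 and fell in 0 of 6, and stellate cell markers rose in 0 and fell in 1 of 6. Acinar markers passed as higher in 1 of 7, and adipocyte markers rose in 1 and fell in 1 of 5. The part of these cell types in the results below was not tested, except where values without the arrays are given.

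ChREBP livers had higher Sult1e1 and Sult3a1 transcripts and lower Sult5a1, Sult1b1, Papss1 and Papss2 transcripts. At an adjusted p under 0.05 in limma, 2 of the 10 members rose and 4 fell, against 13.3% of all genes higher and 13.7% lower (27.0% in either direction). The members were chosen with earlier results of these data known, so these counts are a description. The median difference was -0.18 over the 10 members and -0.04 over all genes. With each array centred on its median the split over all genes was 2194 higher and 5595 lower in place of 2645 and 2730, and 2 members rose and 6 fell. A change of at least 1.5-fold at that threshold was found in Sult5a1, Sult1e1 and Sult3a1, and in 5.57% of all genes. In whole liver, fewer cells of a type and less RNA per cell cannot be told apart.

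**Figure D1:**
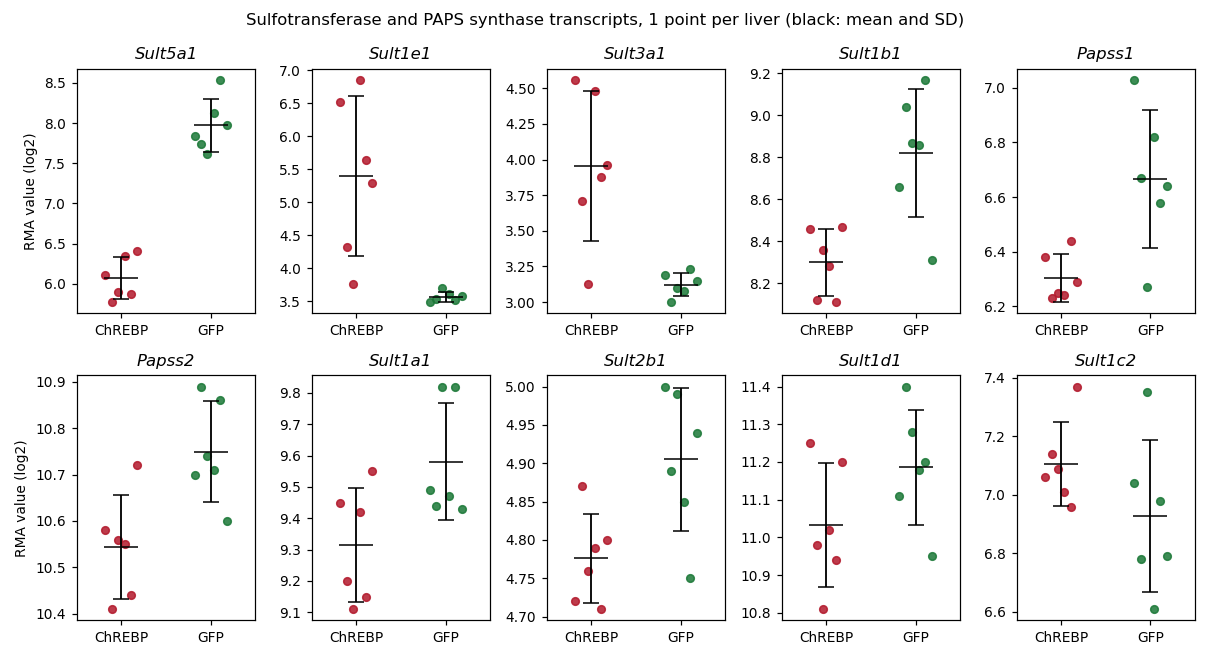
RMA values (log2, y axis, a separate scale for each gene) of the 10 genes, with 1 point for each of 6 ChREBP livers (red, left) and 6 GFP livers (green, right), and with bars in black for mean and SD. Only Sult5a1 and Sult1e1 show no overlap between the groups, and ChREBP points of Sult1e1 and Sult3a1 are spread far more widely than GFP points.

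Sult5a1 (transcript cluster 10582466) is a sulfotransferase found by sequence whose substrates are poorly defined. It gave the largest fall of the 10 genes and the 12th largest of all 19938 genes. Its values were 5.77 at the lowest, 6.01 at the median and 6.41 at the highest in ChREBP livers, against 7.61, 7.91 and 8.54 in GFP livers. All 6 ChREBP livers lay below all 6 GFP livers. The difference was -1.90 (SE 0.15, limma adjusted p = 6.47e-07), with 3.73-fold lower signal in ChREBP livers. The exact two-sided permutation test gave p = 0.00216, the smallest that 924 assignments of the arrays allow. Groups without overlap were found for 1 member on the lower side, against 6.83% of all genes.

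Sult1e1 (transcript cluster 10531111), the estrogen sulfotransferase, inactivates estrogens at low concentrations and is scarce in healthy mouse liver. It read 6.52, 4.33, 3.76, 6.86, 5.64 and 5.29 on ChREBP 1 to ChREBP 6, against 3.49, 3.53, 3.70, 3.61, 3.52 and 3.58 on GFP 1 to GFP 6. ChREBP 1 and ChREBP 4 were highest, and ChREBP 3 was barely above the GFP arrays. All 6 ChREBP livers lay above all GFP livers, which holds for 1 member on the higher side and for 8.33% of all genes. The mean was 5.40 ± 1.21 in ChREBP livers and 3.57 ± 0.08 in GFP livers (SD, n = 6 each). The difference of 1.83 (SE 0.42, 95% interval 0.92 to 2.74) was 3.55-fold, with a limma adjusted p of 0.00542 and an exact two-sided permutation p of 0.00216. Without ChREBP 4 and ChREBP 5, the arrays with the highest acinar markers, the difference was 1.41 (limma adjusted p = 0.0211). ChREBP 2 and ChREBP 6, with acinar means of 7.29 and 6.39, also lay above the GFP arrays in these markers and stayed in that fit.

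Sult3a1 (transcript cluster 10362464), which in mice transfers the sulfonate to amines, rose as well. It read 4.56, 3.71, 3.13, 4.48, 3.88 and 3.96 on ChREBP 1 to ChREBP 6, against 3.19, 3.00, 3.10, 3.08, 3.23 and 3.15 on GFP 1 to GFP 6. Again ChREBP 1 and ChREBP 4 were highest, and ChREBP 3 lay inside the GFP range while the other 5 ChREBP livers lay above it. The difference was 0.83 (SE 0.19, limma adjusted p = 0.00483), or 1.78-fold, with an exact two-sided permutation p of 0.00866. Without ChREBP 4 and ChREBP 5 it was 0.72 (limma adjusted p = 0.0197). The GFP mean of Sult3a1 stood at percentile 0.316 of all gene means and that of Sult1e1 at percentile 2.63. At such low signals the sizes of both rises are uncertain, and probe detection calls were not used.

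Stretches before a listed start are shown for these 3 genes and for Sult1b1, which fell. Each is the 150 bases upstream of a start listed in RefSeq (build GRCm38.p6), on the strand of the gene, in lower case with motif matches in capitals. The annotated spans of Sult3a1 and Sult5a1 begin upstream of the starts used here, so both of these stretches lie inside the annotated gene.

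Sult5a1, chr8:123158281-123158430, minus strand: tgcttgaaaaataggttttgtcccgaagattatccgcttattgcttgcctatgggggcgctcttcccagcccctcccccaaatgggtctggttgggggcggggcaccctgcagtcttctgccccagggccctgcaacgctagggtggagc
Sult1e1, chr5:87591612-87591761, minus strand: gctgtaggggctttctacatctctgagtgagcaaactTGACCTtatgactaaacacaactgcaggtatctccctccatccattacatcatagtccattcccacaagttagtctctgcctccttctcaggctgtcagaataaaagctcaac
Sult3a1, chr10:33857572-33857721, plus strand: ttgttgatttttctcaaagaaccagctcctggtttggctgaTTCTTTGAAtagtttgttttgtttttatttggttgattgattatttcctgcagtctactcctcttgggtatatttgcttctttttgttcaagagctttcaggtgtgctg
Sult1b1, chr5:87538196-87538345, minus strand: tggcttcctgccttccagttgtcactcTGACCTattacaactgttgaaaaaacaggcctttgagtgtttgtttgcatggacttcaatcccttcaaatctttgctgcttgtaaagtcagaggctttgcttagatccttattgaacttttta

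All 10 members matched the promoter table, with 14 windows of 300 bases (250 before and 50 after a start), and 4 motifs were searched on both strands. The nuclear receptor motif AGGTCA, in capitals as its reverse complement in Sult1e1 and Sult1b1, was found in 3 of the 14 windows (Sult1b1, Sult1e1 and Papss2) and in 16.3% of all 32851 windows. The STAT motif TTCNNNGAA was in 1 window, that of Sult3a1, and in 8.30% of all windows. The exact E-box CACGTG was in 0 of the 14 windows and in 7.15% of all windows. Variants of the E-box were not searched, so this count does not show whether ChREBP sites are present. The antioxidant response core TGACNNNGC was in 0 of the 14 windows and in 12.4% of all windows. A match shows letters and not a bound site, and these windows leave out most regulatory sequence.

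Sult1b1 (transcript cluster 10531087) sulfates thyroid hormones and small phenols. Its values were 8.11, 8.32 and 8.47 (lowest, median and highest) in ChREBP livers, against 8.31, 8.87 and 9.17 in GFP livers. GFP 6, the lowest GFP array, lay inside the ChREBP range and the other 5 GFP arrays lay above it. The difference was -0.52 (SE 0.12, limma adjusted p = 0.00645). Leaving out each array in turn gave values from -0.62 (without GFP 6) to -0.45 (without GFP 5). Sult1b1, Sult1d1 and Sult1e1 are neighbours on chromosome 5, with 0 protein-coding genes between them in the RefSeq table, and all are read from the minus strand. Across this cluster Sult1b1 fell, Sult1e1 rose and Sult1d1, between them, did not pass. The probes of such relatives may share signal, which was not tested.

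Transcripts of both PAPS synthase genes were lower, and PAPS itself was not measured. Papss1 (transcript cluster 10496110) read 6.23, 6.27 and 6.44 (lowest, median and highest) in ChREBP livers, against 6.27, 6.65 and 7.03 in GFP livers. GFP 3, at 6.27, was the only GFP array inside the ChREBP range. The difference was -0.36 (SE 0.10, limma adjusted p = 0.0143). It did not pass without GFP 4, GFP 6 and ChREBP 6 (-0.33, adjusted p = 0.0892). These are among the arrays with high adipocyte transcripts, and ChREBP 4, with an adipocyte mean of 6.80, stayed in that fit.

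Papss2 (transcript cluster 10462507), the PAPS synthase gene mutated in brachymorphic mice, read 10.41, 10.56 and 10.72 (lowest, median and highest) in ChREBP livers, against 10.60, 10.72 and 10.89 in GFP livers. In ChREBP livers 5 of 6 values lay below all GFP values, and ChREBP 6 was the exception. The difference was small, at -0.21 (SE 0.06, limma adjusted p = 0.0286). The call was lost under 7 of 23 alternatives, among them those without ChREBP 2 (-0.18, adjusted p = 0.0642), ChREBP 5 (-0.18, adjusted p = 0.0598), GFP 2 (-0.18, adjusted p = 0.0590) or GFP 5 (-0.18, adjusted p = 0.0644), without both ChREBP 4 and ChREBP 5 (-0.18, adjusted p = 0.0905), and with quantile normalization repeated (-0.13, adjusted p = 0.124). Hepatocyte markers were also lower, as given above, and their part in this fall was not tested.

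The other 4 members did not pass. Sult1a1 (transcript cluster 10568001), the main phenol sulfotransferase, was 9.31 ± 0.18 in ChREBP livers and 9.58 ± 0.19 in GFP livers (SD, n = 6 each). Its difference was -0.27 (95% interval -0.47 to -0.06, limma adjusted p = 0.0570). It passed without ChREBP 6 (-0.31, adjusted p = 0.0303) or GFP 6 (-0.30, adjusted p = 0.0484). Sult2b1 (transcript cluster 10563377), which sulfates cholesterol and pregnenolone, was 4.78 ± 0.06 in ChREBP livers and 4.91 ± 0.09 in GFP livers (SD, n = 6 each). Its difference was -0.13 (95% interval -0.24 to -0.02, limma adjusted p = 0.0743), and it passed without GFP 5 (-0.16, adjusted p = 0.0266).

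Sult1d1 (transcript cluster 10531100), which acts on catecholamines and phenols in mice, was 11.03 ± 0.16 in ChREBP livers and 11.19 ± 0.15 in GFP livers (SD, n = 6 each). The difference of -0.15 had a 95% interval of -0.34 to 0.03 (limma adjusted p = 0.199). Sult1c2 (transcript cluster 10451818), a phenol sulfotransferase, was 7.11 ± 0.14 in ChREBP livers and 6.93 ± 0.26 in GFP livers (SD, n = 6 each). The difference of 0.18 had a 95% interval of -0.06 to 0.41 (limma adjusted p = 0.243), and it passed without GFP 3 (0.26, adjusted p = 0.0449). It was 0.12 without GFP 4 (adjusted p = 0.433) and 0.01 without GFP 4, GFP 6 and ChREBP 6 (adjusted p = 0.940). Halving or doubling of these 4 signals lies outside all 4 intervals.

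The members were also compared with one another over the livers of each group. All 45 pairs were computed in both groups, 90 in all, with exact permutation tests over 720 orders of 6 arrays, and the lowest adjusted p was 0.219 for r and 0.375 for rho, so that 0 pairs passed. The values of 2 pairs are given as a description. Sult1a1 with Sult1d1 over ChREBP livers (r = 0.895) had the same lowest adjusted p for r. Over the 6 ChREBP livers Sult1e1 and Sult3a1 had r = 0.955 (rho = 0.886, exact p = 0.00694 for r and 0.0333 for rho), and r = 0.901 without the 2 arrays farthest from the median of Sult1e1. Over GFP livers the same 2 genes had r = -0.283 (rho = -0.543, exact p = 0.583 for r and 0.297 for rho). Sult1b1 and Papss2 had r = 0.914 over ChREBP livers (rho = 0.943, exact p = 0.00278 for r and 0.0167 for rho). They had r = 0.931 over GFP livers (rho = 0.943, exact p = 0.00972 for r and 0.0167 for rho). Without the 2 farthest arrays r was 0.715 in ChREBP livers and 0.853 in GFP livers. Like both genes, the mean of the hepatocyte markers was low on ChREBP 2 (12.83) and ChREBP 5 (12.85) and highest on ChREBP 6 (12.99). Among GFP arrays that mean was lowest on GFP 1 (13.04), while both genes were lowest on GFP 6. The part of hepatocyte content in this pair was not tested.

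**Figure D2:**
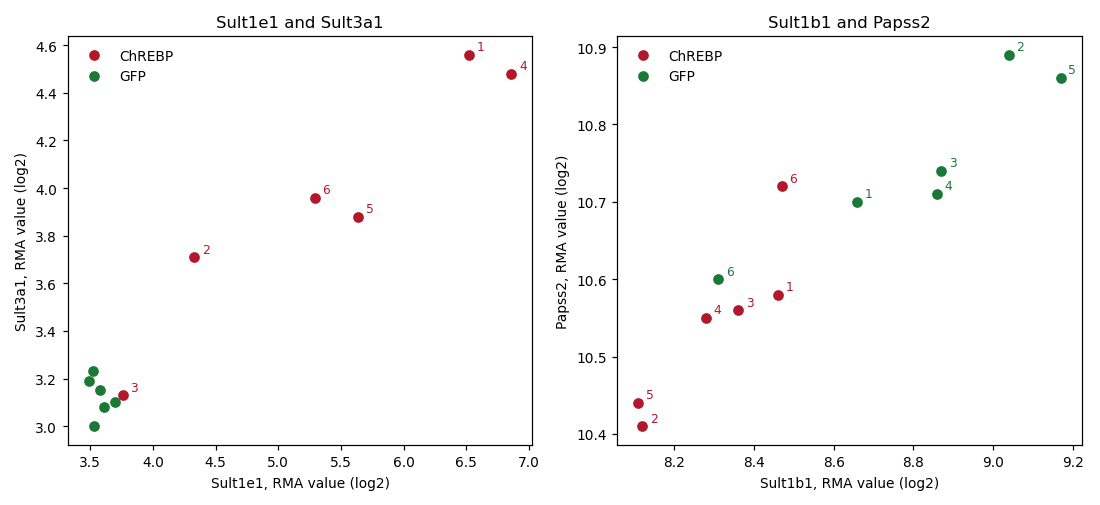
RMA values (log2 on both axes) of Sult3a1 against Sult1e1 (left) and of Papss2 against Sult1b1 (right), with 1 point per liver, ChREBP in red and GFP in green, numbered by replicate except for GFP on the left. ChREBP 1 and ChREBP 4 are high and ChREBP 3 low in both genes on the left, and on the right both groups run from low to high in both genes.

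By the root mean square distance between gene-centred values over the 12 arrays, the gene nearest to Sult1e1 among all genes was Sult3a1 (distance 0.689). Next came Mgst3 (0.731), a microsomal glutathione transferase, and S100g (0.736), a calcium-binding protein. The differences of these 3 genes were 0.83, 1.55 and 2.31, against 1.83 for Sult1e1. Their distances were larger than those given next for Sult5a1, so none was close. The distance of Sult3a1 rests on the same array values as its correlation above and is not separate support. For Sult5a1 the nearest were Susd4 (0.186), a complement inhibitor, Selenbp2 (0.225), a selenium-binding protein, and Avpr1a (0.256), a vasopressin receptor. Their differences were -2.07, -2.13 and -1.69.

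Outside the 10 members, 8 other cytosolic sulfotransferase genes had a row of their own, and 3 passed (37.5%, against 27.0% of all genes). Sult2a8, a bile acid sulfotransferase of mouse liver, read 9.91, 8.99, 10.09, 9.34, 9.65 and 10.41 on ChREBP 1 to ChREBP 6, against 11.37, 11.60, 11.50, 11.56, 11.41 and 11.27 on GFP 1 to GFP 6. The groups did not overlap, and the difference of -1.72 (SE 0.19, limma adjusted p = 1.16e-05) was close in size to that of Sult5a1. Its relative Sult2a3, from a family that sulfates hydroxysteroids, was 4.18 ± 0.31 in ChREBP livers and 3.62 ± 0.11 in GFP livers (SD, n = 6 each) and rose by 0.56 (limma adjusted p = 0.00282). The GFP mean of Sult2a3 stood at percentile 3.06 of all gene means, so the size of this rise is uncertain. ChREBP 4 read 4.76, against 3.87 to 4.18 on the other ChREBP arrays, and a value without it is not given here. Sult4a1, a brain form with no settled substrate, was 5.88 ± 0.15 in ChREBP livers and 5.47 ± 0.10 in GFP livers (SD, n = 6 each) and rose by 0.42 (limma adjusted p = 0.000548). Sult1c1 (-0.20), Sult2a6 (0.06), Sult3a2 (-0.04), Sult6b1 (0.07) and Sult6b2 (0.06) did not pass. Their GFP means stood at percentiles 9.67, 2.92, 0.181, 3.82 and 6.43 of all gene means, in that order. At such low signals a change could be missed. Sult3a2 lies beside Sult3a1 on chromosome 10 and read 2.96 to 3.07 in ChREBP livers and 3.01 to 3.12 in GFP livers. Rows shared by several Sult2a genes were not used here.

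**Figure D3:**
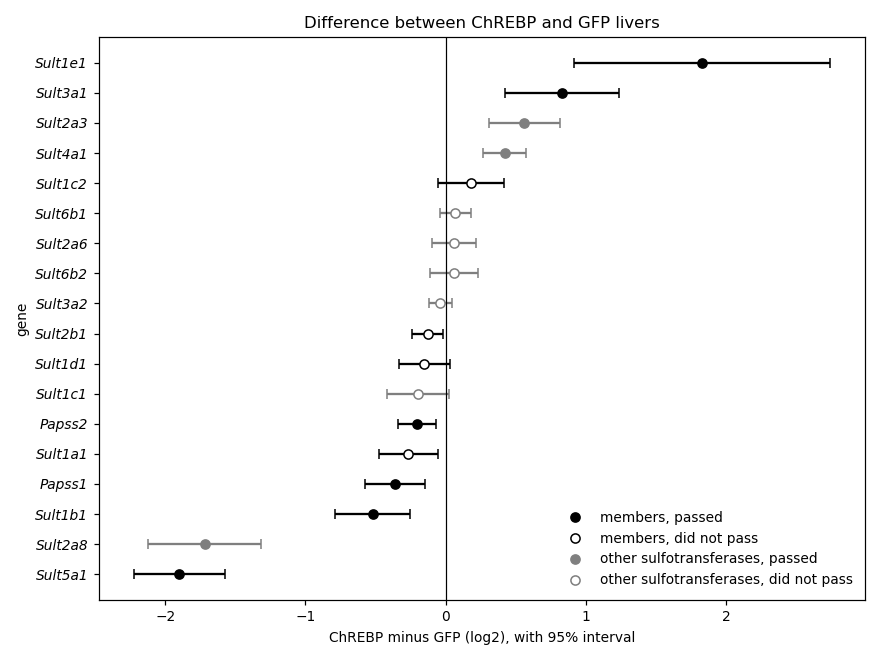
Difference between ChREBP and GFP livers (log2, x axis) with its 95% interval for the 10 members (black) and 8 other cytosolic sulfotransferase genes (grey), where filled points passed at an adjusted p under 0.05. Sult5a1 (-1.90) and Sult2a8 (-1.72) lie far to the left, and Sult1e1 (1.83) and Sult3a1 (0.83) to the right.

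Sulfate for PAPS comes from uptake and from the oxidation of cysteine. Of 13 measured genes for sulfate import and sulfur oxidation 0 rose and 8 fell (61.5% lower, against 13.7% of all genes), with a median difference of -0.19 (all genes -0.04). This list was drawn up with earlier results of the same arrays known, so its direction is a description. The share of all genes that were lower also depends on the scaling, as given above. Tst, the thiosulfate sulfurtransferase, was 9.81 ± 0.07 in ChREBP livers and 10.50 ± 0.11 in GFP livers (SD, n = 6 each), a difference of -0.69 (limma adjusted p = 6.60e-07). The sulfate transporter gene Slc26a1 fell by 0.60, the sulfite oxidase gene Suox by 0.45 and the persulfide dioxygenase gene Ethe1 by 0.30. The other 4 that fell did so by 0.17 to 0.33. Slc13a1 (0.11), Slc13a4 (-0.15), Slc26a2 (0.10), Slc26a6 (0.01) and Got1 (-0.19) did not pass. After the transfer PAPS is left as PAP, which Bpnt1 removes in the cytosol and Bpnt2 in the Golgi. Bpnt1 fell by 0.28 (limma adjusted p = 0.00608) and Bpnt2 rose by 0.19 (limma adjusted p = 0.0347). The Golgi PAPS transporter genes Slc35b2 (-0.09) and Slc35b3 (-0.00) did not pass.

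Among 14 measured regulators known to act on sulfotransferase genes 1 rose and 5 fell (7.14% higher and 35.7% lower, against 13.3% and 13.7% of all genes), with a median difference of -0.10. Nfe2l2, for the antioxidant regulator Nrf2, rose by 0.81 (limma adjusted p = 1.08e-06). The estrogen receptor gene Esr1 fell by 0.61, the glucocorticoid receptor gene Nr3c1 by 0.35, Rora by 0.33, Hnf4a by 0.33 and Cebpa by 0.17. The xenobiotic receptor genes, added after their values were seen, were Nr1i3 for CAR (-0.35, adjusted p = 0.0670) and Nr1i2 for PXR (-0.05, adjusted p = 0.651), and neither passed.

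Genes known to differ between male and female liver moved beside Sult3a1. These lists were drawn up with earlier results of the same arrays known, so their direction is a description. Of 10 measured female-predominant genes 7 rose and 0 fell (70.0% higher, against 13.3% of all genes; median difference 0.77), led by Cyp2b9 (6.73), Cyp2b13 (4.81), Abcd2 (1.85) and Acot3 (1.19). Of 13 male-predominant genes 0 rose and 12 fell (92.3% lower, against 13.7% of all genes; median difference -1.72), with Hsd3b5 (-6.07), Slco1a1 (-3.92), Cyp7b1 (-3.14) and Serpina4-ps1 (-2.62) among them. On ChREBP 3, where Sult3a1 read 3.13, Cyp2b13 (8.39), Abcd2 (8.23) and Acot3 (6.56) had their lowest ChREBP values. Slco1a1 (8.56) and Serpina4-ps1 (8.08) had their highest ChREBP values there, while Hsd3b5 (8.13) and Cyp7b1 (8.60) had theirs on ChREBP 4. Cyp2b9 was 11.72 to 12.03 on all ChREBP arrays and 11.80 on ChREBP 3. A link of Sult3a1 with these genes was not tested.

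**Figure D4:**
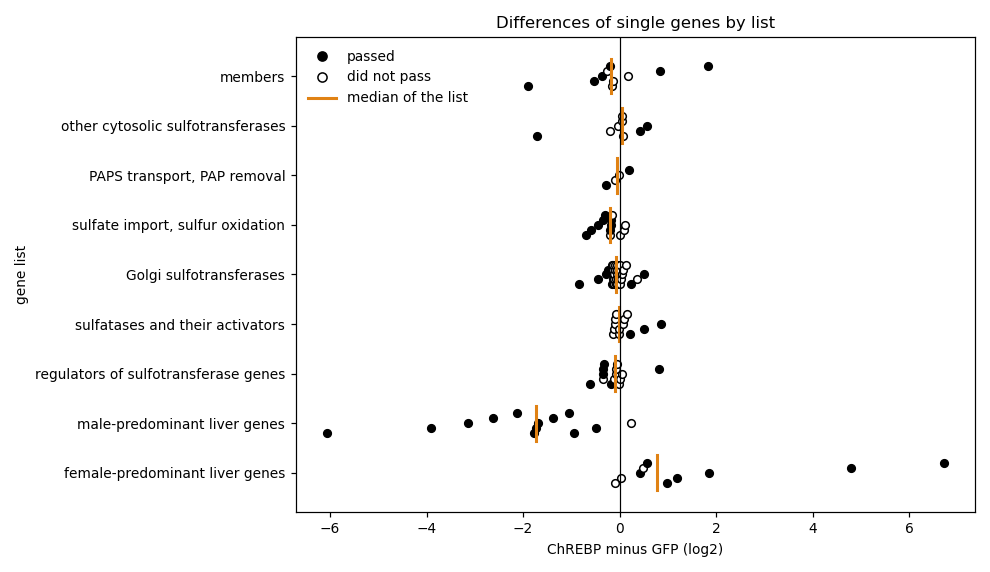
Difference between ChREBP and GFP livers (log2, x axis) of each measured gene in 9 lists (rows), with filled points for genes that passed, open points for those that did not, and an orange bar for the median of the list. The row for sulfate import and sulfur oxidation has 8 filled points, all left of 0, and the male-predominant and female-predominant genes lie mostly on opposite sides.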

How the data were processed

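Total RNA of each liver was amplified and biotin-labelled with Nugen kits and hybridised to an Affymetrix mouse gene array. The values are log2 values deposited by the authors, and RMA and Partek, with no version, are the tools in the submitters' processing notes. Such values are background-corrected by RMA, which also normalizes arrays by quantiles and summarises probes, which can compress low signals. Detection calls and scan dates were not used here, and the number of arrays limits the precision. No filter was applied.

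Of 35556 rows, 21789 carried 1 symbol, 1621 several, and 12146 were not listed with a symbol. Symbols were updated by Entrez ID (21698 matched) in the RefSeq table of GRCm38.p6, and the brightest row stood for a gene. All differences are ChREBP minus GFP, tested two-sided with limma 3.58.1 under R 4.3.3. The fit (lmFit, then eBayes) had no covariate, and p-values were adjusted by Benjamini and Hochberg's method over 19938 genes. The labels call the arrays biological replicates. The study's methods describe arrays of another transgene (Phf2), tested gene by gene with an analysis of variance, which was tried as an alternative.

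Named were the 10 members, Mlxipl, every other cytosolic sulfotransferase, up to 4 genes of smallest p per list, genes completing a count, and 3 nearest genes for 2 members. Members and the 8 pathway and 8 marker lists were chosen with earlier results of these data known. On simulated data for this comparison (19938 genes, 200 changed, 10 runs) limma recovered 38.6% of genes changed 1.2-fold, 90.0% at 1.5-fold, 98.4% at 2-fold and 98.8% at 4-fold, and 4.81% of calls were false.

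In all, 23 alternatives were tried. Values were median-centred or quantile-normalized again, the dimmest 25% of genes were dropped, and rows of a gene were averaged. The model took a variance trend with robust moderation, weights for arrays, an analysis of variance, a block for replicate number, or adjustment over all rows. Arrays were left out one by one, as were ChREBP 4 with ChREBP 5, and GFP 4 and GFP 6 with ChREBP 6.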

Additional observations from a re-analysis of the deposited data

Results flagged for a closer look

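Outliers were sought in 38 groups of 6 arrays (10 members, 8 other cytosolic sulfotransferases and Mlxipl), and the gap to the nearest array exceeded 0.625 of the group's range in 2. Chance gives about 1 in 20 groups. Neither of the 2 was a member. Sult2a3 read 4.76 on ChREBP 4, against 3.87 to 4.18 on the other ChREBP arrays. Sult2a6 read 3.41 on GFP 6, against 3.59 to 3.68 on the other GFP arrays.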

How the results depend on the processing

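Mlxipl, Sult5a1, Sult1b1, Sult1e1 and Sult3a1 kept their direction and their call under every alternative that gave them a value (23 each, and 22 for Sult1e1 and Sult3a1). With the 25% dimmest genes left out, Sult1e1, Sult3a1 and Sult2b1 were not tested, so 0 members counted as higher. Median centring raised the count of lower genes to 5595 of all genes, against 2730. The median shift of the differences under this centring was -0.0553, and the part of this shift in the count was not tested. Papss2 lost its call under 7 alternatives (-0.13 to -0.21), Papss1 under 1, and Sult1a1 gained one under 7, Sult2b1 under 2 and Sult1c2 under 1. No difference of a member reversed. Leaving out each array gave 2 to 3 members higher and 3 to 5 lower, 15 to 16 genes of the pathway lists higher and 30 to 33 lower, 2364 to 2648 of all genes higher and 2263 to 2984 lower, and 1.52 to 1.63 for Mlxipl. Same-numbered arrays had deviations correlated at -0.06 to 0.25, and 1 of 6 ChREBP and 1 of 6 GFP arrays matched best with their own number, so the numbers were not taken as pairs. With the replicate number as a block 2 members were higher and 3 lower, Papss2 did not pass (-0.21, adjusted p = 0.103), and 2380 of all genes were higher and 2059 lower. Genes of low signal, such as Sult3a1, have uncertain sizes. In the simulation 38.6% of changes of 1.2-fold were recovered with 6 arrays a group. The simulation changed 200 genes, while 27.0% of all genes passed in the data, so this share does not carry over to the data.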

Other observations

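Golgi sulfotransferases and sulfatases draw on the same donor or undo its products outside the cytosol. Of 33 measured Golgi sulfotransferase genes 2 rose and 5 fell (21.2%, against 27.0% of all genes), with a median difference of -0.07. Tpst1, a tyrosylprotein sulfotransferase, was 8.15 ± 0.09 in ChREBP livers and 8.99 ± 0.12 in GFP livers (SD, n = 6 each), a difference of -0.84 (limma adjusted p = 3.18e-07). Hs3st3b1 (-0.45) and Hs3st2 (-0.28), both for heparan sulfate, Tpst2 (-0.23) and Gal3st3 (-0.15) also fell. Chst14, for dermatan sulfate, rose by 0.50 and Chst11, for chondroitin sulfate, by 0.23.

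Of 13 measured sulfatases and their activators 3 rose and 0 fell (23.1%, against 27.0% of all genes), with a median difference of -0.00. Sulf2, which trims heparan sulfate outside the cell, was 7.84 ± 0.11 in ChREBP livers and 6.97 ± 0.23 in GFP livers (SD, n = 6 each), a difference of 0.87 (limma adjusted p = 1.15e-05). The arylsulfatase gene Arsa rose by 0.50 and Galns by 0.21, while Arsg (0.16, adjusted p = 0.155) did not pass.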
